A study of Mus musculus with 36 samples.

Results

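The 50 genes described here encode proteins that copy DNA and proteins that carry out mitosis. They were chosen by name from a deposited table of read counts that listed 55358 genes in mouse keratinocytes, the cells that form the epidermis. The choice was made with an earlier result of these data known, namely that cell cycle genes stood higher in PKP4-KO than in WT cells after 24 h in high calcium medium. That comparison is therefore given as a description without a test. All 50 genes passed the filter on low counts, which kept 15114 genes for testing. By role, 21 of them act in G1/S and S phase and 29 in G2/M and mitosis.

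The study asked how plakophilin 4 (PKP4), a protein of cell junctions, acts in keratinocytes that differentiate. RNA was sequenced from 36 cultures in 12 groups of 3, described in the series as biological replicates. WT cells were primary keratinocytes from newborn Pkp4+/+ pups, and PKP4-KO cells came from newborn pups homozygous for a Pkp4 allele derived from tm1b(EUCOMM)Wtsi, which lacks exon 9 and from which the lacZ reporter had been removed by FLPe breeding before backcrossing to C57BL/6J. Rescue cells were PKP4-KO keratinocytes that carried EGFP-tagged human PKP4 from a lentiviral vector and had been selected with puromycin. Each kind of cell was cultured for either 24 h or 72 h in low calcium medium (LCM), in which keratinocytes stay basal-like, or in high calcium medium (HCM), which starts their differentiation. No WT or PKP4-KO culture with an empty vector was analysed here, so the transgene and the vector with its selection cannot be told apart in the Rescue cells. In the sample names the 72 h cultures are marked HD and the 24 h cultures LD. Any other condition that these letters may name cannot be told apart from time. The number of pups behind each group is not given in the sources used here.

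Proliferating cells express replication genes around the start of S phase and mitosis genes toward G2 and M. E2F factors drive the first wave, and the MuvB complex with MYBL2 and FOXM1 drives the second, partly through the CHR and CCAAT elements in their promoters. In the epidermis, cell division belongs to the basal layer, and keratinocytes leave the cycle as they differentiate. The products fall into working units: the MCM helicase with its loaders CDC6 and CDT1 opens the DNA, PCNA clamps the polymerases to it, CDK1 with cyclins A and B starts mitosis, and the spindle checkpoint and the anaphase-promoting complex time the separation of chromosomes.

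The promoters are shown because levels of these genes correlated across the libraries and because the elements of both waves are known. A promoter sequence was found in RefSeq (GRCm38.p6) for 40 of the 50 genes, and matches were counted on both strands from 250 bases before to 50 bases after the start of the gene. The CHR motif TTTGAA was present at 17 of 24 mitosis genes (70.8%) and at 2 of 16 S-phase genes (12.5%), against 18.1% of 27025 genes. Its variant TTTAAA was present at 33.3% of the mitosis genes, 18.8% of the S-phase genes and 13.2% of all genes. CCAAT was present at 18 of the 24 mitosis genes, at 10 of the 16 S-phase genes (62.5%) and 37.9% of all genes. An E2F motif, searched as TTTCCCGC, TTTGGCGC or TTTCGCGC, was present at 6 of the 16 S-phase genes (37.5%), namely Mcm3, Mcm5, Mcm6, Mcm7, Cdc6 and Cdt1. Of the mitosis genes only Cdk1 held it (4.17%), and the share of all genes was 1.91%. A match says that these letters are in the window and no more. The 250 bases before the start are printed 5′ to 3′ on the strand of the gene for 3 mitosis genes and 3 replication genes whose values are given further on, with every match of the 4 motifs in capitals. Neighbouring matches that overlap form 1 run of capitals, as in Mcm5 and Mcm6, where E2F matches on both strands share bases, and in Ube2c, where 2 CCAAT matches on opposite strands do.
Cdk1 (chr10:69352913-69353162, minus strand): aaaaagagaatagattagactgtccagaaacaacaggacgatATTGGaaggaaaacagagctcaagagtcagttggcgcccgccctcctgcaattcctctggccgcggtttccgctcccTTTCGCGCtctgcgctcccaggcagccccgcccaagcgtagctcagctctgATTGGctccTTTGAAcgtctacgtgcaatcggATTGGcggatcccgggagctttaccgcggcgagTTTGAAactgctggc
Cdc20 (chr4:118437344-118437593, minus strand): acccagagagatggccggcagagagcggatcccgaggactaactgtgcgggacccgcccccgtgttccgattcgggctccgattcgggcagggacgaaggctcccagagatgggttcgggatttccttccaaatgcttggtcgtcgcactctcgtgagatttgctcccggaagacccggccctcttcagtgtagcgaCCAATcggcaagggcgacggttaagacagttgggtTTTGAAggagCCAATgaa
Ube2c (chr2:164769679-164769928, plus strand): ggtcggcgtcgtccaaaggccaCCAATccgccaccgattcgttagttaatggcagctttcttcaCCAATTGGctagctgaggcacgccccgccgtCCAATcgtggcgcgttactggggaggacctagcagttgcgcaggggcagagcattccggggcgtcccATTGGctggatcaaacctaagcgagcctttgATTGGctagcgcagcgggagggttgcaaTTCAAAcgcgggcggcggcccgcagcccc
Mcm5 (chr8:75109259-75109508, plus strand): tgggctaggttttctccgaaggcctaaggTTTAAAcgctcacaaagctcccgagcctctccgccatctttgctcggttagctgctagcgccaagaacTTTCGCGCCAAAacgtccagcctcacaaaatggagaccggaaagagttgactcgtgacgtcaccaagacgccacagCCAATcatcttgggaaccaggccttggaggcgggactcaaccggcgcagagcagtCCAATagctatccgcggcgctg
Mcm6 (chr1:128359706-128359955, minus strand): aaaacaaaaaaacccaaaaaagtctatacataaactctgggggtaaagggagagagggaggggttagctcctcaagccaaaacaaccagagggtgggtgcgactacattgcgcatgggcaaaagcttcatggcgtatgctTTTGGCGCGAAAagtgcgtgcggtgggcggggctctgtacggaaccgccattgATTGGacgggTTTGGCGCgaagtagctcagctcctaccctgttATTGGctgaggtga
Cdc6 (chr11:98907901-98908150, plus strand): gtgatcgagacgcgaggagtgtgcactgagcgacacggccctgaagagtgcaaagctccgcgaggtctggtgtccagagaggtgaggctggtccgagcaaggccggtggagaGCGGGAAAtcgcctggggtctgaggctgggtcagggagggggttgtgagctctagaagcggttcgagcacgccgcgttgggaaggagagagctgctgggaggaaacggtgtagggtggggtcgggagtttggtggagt

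The libraries held 13602728 to 22467187 counts each, with a median of 17353500. Pkp4 reached 33.4 to 76.3 CPM (counts scaled to the size of the library) in WT, 6.40 to 14.1 in PKP4-KO and 6.52 to 11.9 in Rescue libraries. Reads on the tagged human transgene numbered 1902 to 15325 in Rescue libraries, 0 to 113 in WT and 3 to 112 in PKP4-KO libraries, so the 3 kinds of cells matched their labels. The basal keratins Krt5 and Krt14 reached at least 7624 CPM in every library, and markers of other cells were low, except for the immune gene Cd68. Of 6 melanocyte genes Tyr had no read in any library, while Mlana and Pmel had reads in all but 1 each, and the 6 summed to 0.231 to 2.09 CPM. The 7 fibroblast markers summed to 0 to 11.5 CPM and the 4 endothelial markers to 0.581 to 5.41 CPM. The 5 immune markers, of which Cd207 had no read and Cd68 carried nearly the whole sum, reached 21.04 to 60.7 CPM in WT, 6.78 to 47.1 in PKP4-KO and 62.2 to 178 in Rescue libraries, and their part in differences between these cells was not tested. Levels are given as CPM after scaling by trimmed mean of M-values (TMM), and the PKP4-KO 72 h HCM libraries had the lowest scaling factors, 0.481 to 0.546, against 0.705 to 1.39 elsewhere. Without these factors the median log2 fold change of all genes was −1.16 for PKP4-KO cells at 72 h against 24 h in HCM and 1.37 for Rescue against PKP4-KO at 72 h in HCM, so every fold change is relative to the bulk of the genes. In 5 libraries the sum of 10 differentiation markers was over 2 times that of both groupmates. In each of the 5 the summed level of the 50 genes was under that of both groupmates. The Spearman correlation of gene levels with gene length was −0.40 to −0.20 in these 5 libraries and positive in their groupmates. It was also negative in all PKP4-KO 72 h libraries (−0.50 to −0.11) and in the third Rescue 24 h LCM library (−0.17). The parts of differentiation and of gene length in these 5 libraries were not tested apart. In bulk samples, fewer dividing cells and less RNA of these genes per cell cannot be told apart.

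Summed over the 50 genes, the level was highest in PKP4-KO cells at 24 h. The sum was 6798 to 8236 CPM in PKP4-KO 24 h LCM and 7477 to 8514 CPM in PKP4-KO 24 h HCM libraries. WT libraries held 5627 to 6133 CPM at 24 h in LCM and 3764 to 4383 CPM at 24 h in HCM. At 72 h in HCM the sums were 2912 to 3187 in WT, 2980.1 to 3426 in PKP4-KO and 2567 to 2939 CPM in Rescue libraries. Rescue cells reached similar sums in 2 other groups, with 2907 to 3147 CPM at 24 h in HCM and 2776 to 3410.2 CPM at 72 h in LCM. On this TMM-scaled measure the libraries of the PKP4-KO 24 h groups did not overlap with those of any other group. As a share of raw counts the 50 genes made up 0.631 to 0.944% (LCM) and 0.734 to 0.982% (HCM) in these groups. Both ranges overlapped that of the WT 24 h LCM libraries, 0.724 to 0.782%. At 72 h in HCM the shares were 0.149 to 0.187% in PKP4-KO, 0.205 to 0.312% in WT and 0.299 to 0.340% in Rescue libraries. There the PKP4-KO libraries lay under those of WT and Rescue as a share of raw counts, but not on the TMM-scaled measure. The high level in PKP4-KO 24 h HCM was known when the genes were chosen.

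**Figure D1:**
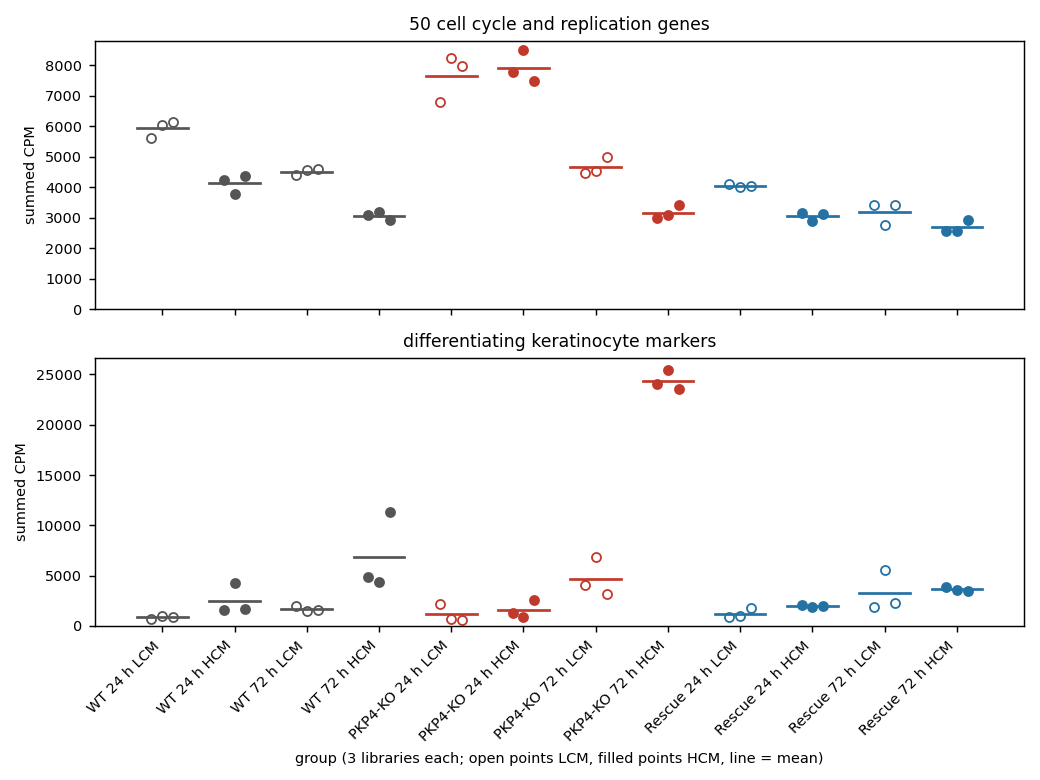
Summed level (TMM-scaled CPM) of the 50 cell cycle and DNA replication genes (upper panel) and of 10 differentiation markers (lower panel) by group, with 1 point per library, open for LCM and filled for HCM, and a line for the mean of the 3 libraries. The member sum is highest in the PKP4-KO 24 h groups, and the marker sum is highest in PKP4-KO 72 h HCM.

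Of the 50 genes, 21 had their highest group mean in PKP4-KO 24 h LCM, 16 in PKP4-KO 24 h HCM and 11 in WT 24 h LCM. The lowest group mean was in PKP4-KO 72 h HCM for 22 genes, in Rescue 72 h HCM for 12 and in WT 72 h HCM for 8. The ratio of the highest to the lowest group mean ran from 2.34 for Ccnb2, a B-type cyclin, to 8.29 for Brca1, a DNA repair protein, with a median of 4.03. Across the 36 libraries the pairwise correlation of log2 CPM between members had a median r of 0.65 over 1225 pairs, and 0.26 after the group means were subtracted. The pairs share libraries, depth and scaling. Aurka, a spindle kinase, tracked the other members most closely (median r 0.80). Cenpe, a kinetochore motor, did so least (median r 0.068). Cenpe was also the least abundant member, with a mean of 4.17 CPM over all libraries against 376 CPM for Pcna, the most abundant.

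**Figure D2:**
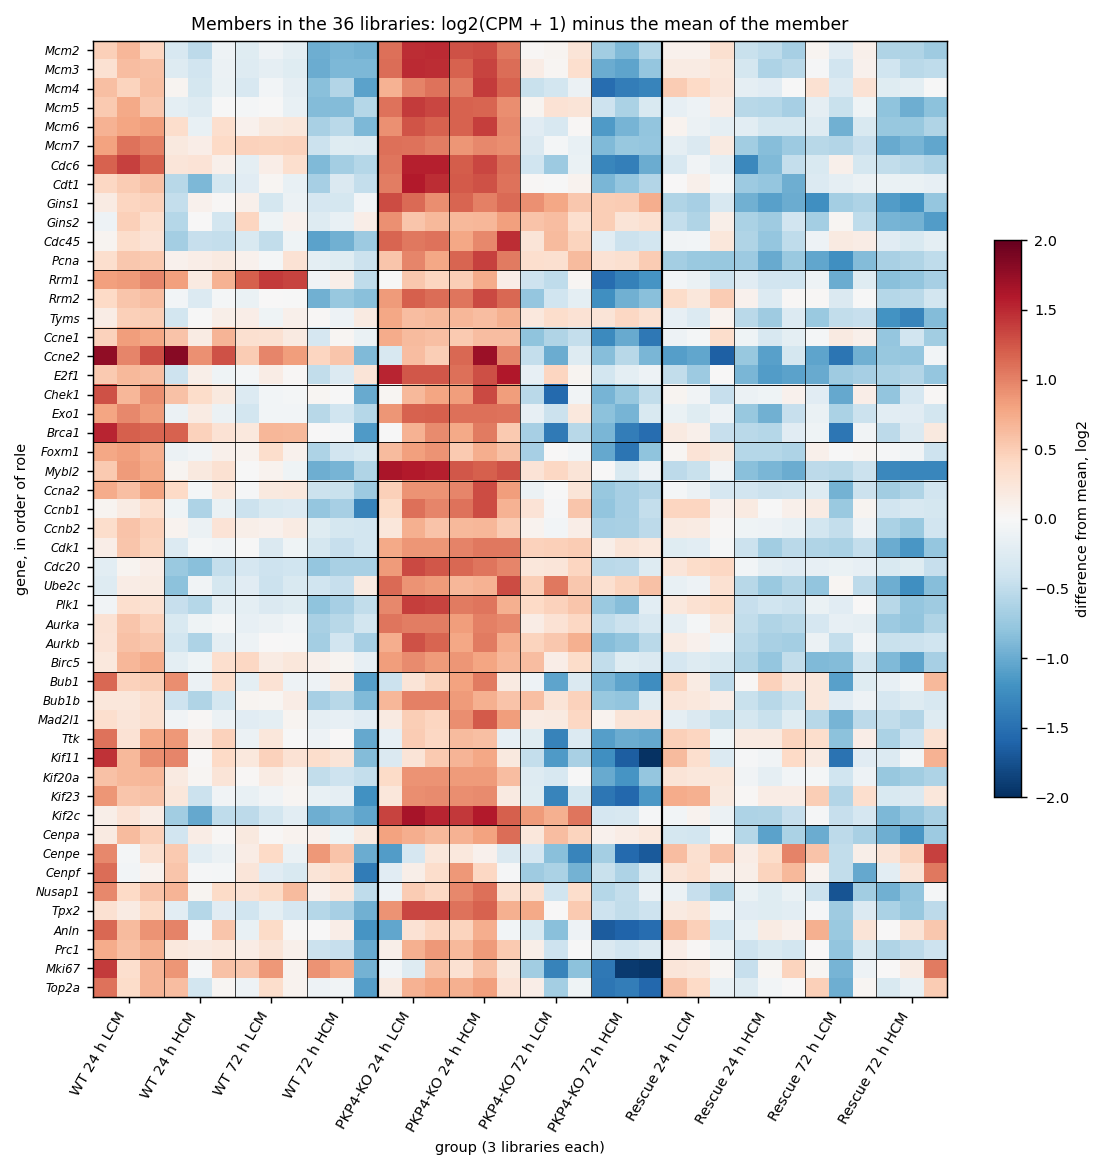
Heat map of the 50 genes (rows, ordered by role) in the 36 libraries (columns, by group), with colour for log2(CPM + 1) minus the mean of the gene over all libraries, red above and blue under it. Most genes are above their mean in both PKP4-KO 24 h groups and below it in the 72 h HCM groups.

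The effect of calcium was read by comparing HCM with LCM within each kind of cell. A gene is called when its p-value from edgeR's quasi-likelihood test, after Benjamini-Hochberg adjustment over the 15114 genes, was below 0.05. In WT cells at 24 h, 28 of the 50 genes were called lower in HCM and 0 higher, against 6.48% of all genes called lower and 7.69% called higher. The median log2 fold change was −0.56, beside 0.02 over all genes, and all 50 estimates were negative. The WT 24 h HCM libraries are the lower arm of the contrast known when the genes were chosen, so the choice favours this direction and the count is not independent of it. Among replication licensing and fork genes 9 of 12 fell, and among mitotic kinases and survivin 4 of 4 did. Cdt1, a loader of the MCM helicase, stood at 59.96, 63.7 and 67.6 CPM in WT 24 h LCM libraries and at 29.98, 23.4 and 34.7 CPM in HCM libraries. The 2 groups did not overlap, and the log2 fold change of Cdt1 was −1.12 (SE 0.14, adjusted p = 7.61e-07). Cdc6, the second loader, fell from 20.9, 23.98 and 21.2 CPM to 10.5, 10.7 and 9.38 CPM, a log2 fold change of −1.11 (SE 0.20, adjusted p = 0.000251). Mcm6, a helicase subunit, stood at 209, 223 and 229 CPM in LCM and at 163, 115 and 162 CPM in HCM libraries, with no overlap (−0.59 (SE 0.16, adjusted p = 0.012)). Kif2c, a kinesin that takes microtubules apart at the centromere, changed by −0.93 (SE 0.14, adjusted p = 2.16e-05). For Cdk1 the LCM libraries stood at 189.98, 256 and 238 CPM and the HCM libraries at 144, 168 and 166 CPM. All HCM values of Cdk1 lay under all LCM values, and the log2 fold change was −0.52 (SE 0.12, adjusted p = 0.00202). Pcna (log2 fold change −0.34, adjusted p = 0.079) and the checkpoint gene Mad2l1 (−0.35, adjusted p = 0.0658) were not called, although their groups did not overlap. The libraries of 34 genes did not overlap with HCM lower, against 14.6% of all genes.

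At 72 h, 23 of the 50 genes were called lower in WT HCM than in WT LCM libraries and 0 higher, against 10.8% and 10.6% of all genes. The median was −0.42 on the log2 scale. The largest fall was that of Rrm1, the large subunit of ribonucleotide reductase, which makes the building blocks of DNA. Rrm1 stood at 722, 824 and 797 CPM in LCM and at 297, 338 and 221 CPM in HCM libraries, a log2 fold change of −1.45 (SE 0.21, adjusted p = 6.73e-06). The highest estimate was 0.25 for Cenpe (adjusted p = 0.778).

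In PKP4-KO cells at 24 h, 1 of the 50 genes was called between HCM and LCM, Mad2l1, and it was higher in HCM. The test called 1.44% of all genes higher and 1.4% lower in this comparison, and DESeq2 called 3 of the 50 genes, 2 of them higher. At an unadjusted p below 0.05 there were 4 genes, 3 higher and 1 lower. The PKP4-KO 24 h HCM libraries are the upper arm of the contrast known when the genes were chosen. The choice thus works against falls here, and the count is not independent of it. The median log2 fold change was 0.02, and the standard errors of the 50 estimates had a median of 0.16, as they did in WT cells. Mad2l1 stood at 115, 144 and 138 CPM in LCM and at 194, 241 and 183 CPM in HCM libraries, a log2 fold change of 0.64 (SE 0.13, adjusted p = 0.00396), and it was no longer called without the second PKP4-KO 24 h HCM library. Cdk1 stood at 293, 320.2 and 321 CPM in LCM and at 345, 362 and 359.9 CPM in HCM (log2 fold change 0.19, adjusted p = 0.486). Cdt1 stood at 91.7, 136 and 126 CPM in LCM and at 105, 109 and 95.4 CPM in HCM, with overlapping groups (−0.19, adjusted p = 0.595). The lowest estimate belonged to Mybl2, a transcription factor of G2/M genes (−0.36, adjusted p = 0.104), and the highest to Ccne2, a cyclin of the G1/S transition (1.05, adjusted p = 0.115).

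The difference between the calcium effects of PKP4-KO and WT cells at 24 h was tested directly. The PKP4-KO effect was the more positive for all 50 genes, with a median difference of 0.65 on the log2 scale, and 14 genes were called, all in that direction, against 1.23% of all genes called in that direction and 2.79% in the other. This difference uses the 24 h HCM libraries whose contrast was known when the genes were chosen, so it is not independent of the choice. The 14 genes were Mcm2, Mcm3, Mcm4, Mcm7, Cdc45, Cdt1, Pcna, Rrm2 and Exo1 of S phase and Cdc20, Cdk1, Ccna2, Kif2c and Mad2l1 of mitosis. The difference was 0.99 (SE 0.18, adjusted p = 0.00107) for Mad2l1, 0.71 (SE 0.16, adjusted p = 0.00914) for Cdk1 and 0.95 (SE 0.25, adjusted p = 0.0259) for Exo1, a nuclease of DNA repair. The count was 3 without the filter on low counts and 4 in a fit of the 4 compared groups alone, and it was 23 with DESeq2 and 23 with at least 10 counts required in every library. It was 4 without the 5 libraries whose differentiation marker sum was over 2 times that of both groupmates, and 5 to 13 when any single library was left out, with 5 reached without the second PKP4-KO 24 h HCM library. In the same 4 groups, 10 differentiation markers summed to 714 to 1001 CPM (WT LCM), 1553 to 4298 (WT HCM), 638 to 2202 (PKP4-KO LCM) and 884 to 2561 CPM (PKP4-KO HCM). Of these markers 8 of 10 rose with calcium in WT cells, while in PKP4-KO cells 3 rose and 1 fell. Their part in the result was not tested.

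**Figure D3:**
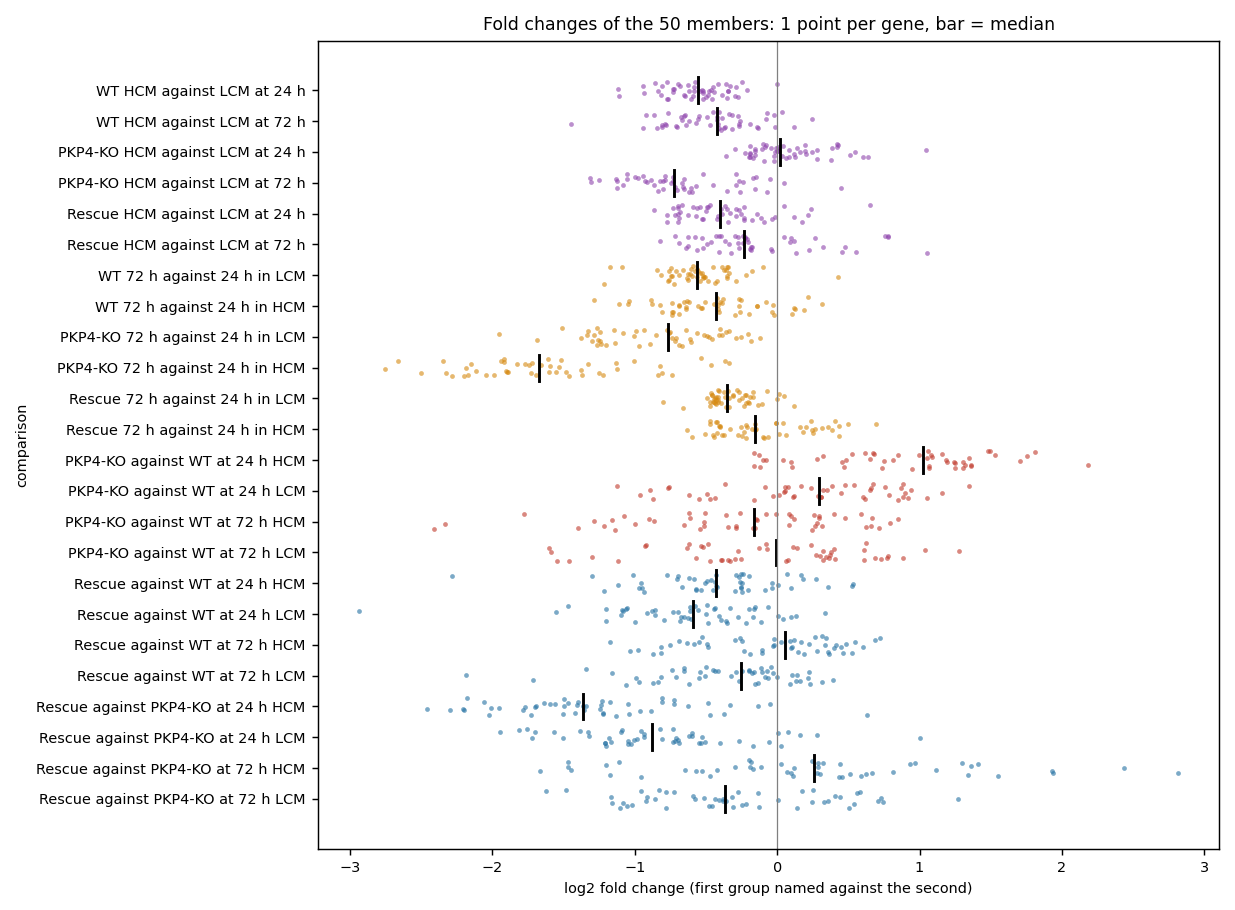
Log2 fold changes of the 50 genes (horizontal axis) in 24 comparisons (rows, coloured by kind), with 1 point per gene and a bar at the median. The calcium effect at 24 h lies under 0 for all genes in WT cells and around 0 in PKP4-KO cells, and the points for 72 h against 24 h in PKP4-KO HCM all lie under 0.

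In PKP4-KO cells at 72 h, 30 of the 50 genes were called lower in HCM than in LCM libraries and 0 higher, against 19.7% of all genes called lower and 12.9% higher, and the median was −0.72. Top2a, the topoisomerase that untangles sister chromatids, changed most (−1.32 (SE 0.33, adjusted p = 0.00259)), and Cenpf, a kinetochore protein, had the highest estimate (0.45, adjusted p = 0.504). The difference between PKP4-KO and WT effects at 72 h had a median of −0.23. It was called for 1 gene, Aurkb, a kinase of the chromosomal passenger complex (−0.76 (SE 0.20, adjusted p = 0.0206)), in the direction of 3.88% of all genes, with 1.85% called in the other. At an unadjusted p below 0.05 there were 9 genes. The call was absent without the first or the second PKP4-KO 72 h HCM library, the third PKP4-KO 72 h LCM library or the second WT 72 h HCM library, each of which gave 0 genes, while 2 genes were called without the third PKP4-KO 72 h HCM library.

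In Rescue cells at 24 h, 23 of the 50 genes were called lower in HCM and 0 higher, against 5.96% of all genes called lower and 6% higher. The median was −0.40, and the count was 14 without the second Rescue 24 h HCM library, 14 without the filter and 15 in a fit of the compared groups alone. Cdt1 fell the most (−0.87 (SE 0.14, adjusted p = 4.33e-05)), and the highest estimate was 0.65 for Ccne2 (adjusted p = 0.31). At 72 h in Rescue cells 15 genes fell and 1 rose, against 12% and 13% of all genes, and the median was −0.23. Mybl2 fell most (−0.82 (SE 0.12, adjusted p = 7.76e-06)). The gene that rose was Pcna, from 164, 143 and 185 CPM in LCM to 215, 222 and 238 CPM in HCM libraries (0.46 (SE 0.13, adjusted p = 0.0105)). Its groups did not overlap. Cenpf had the highest estimate, 1.05, with an adjusted p of 0.083.

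**Figure D4:**
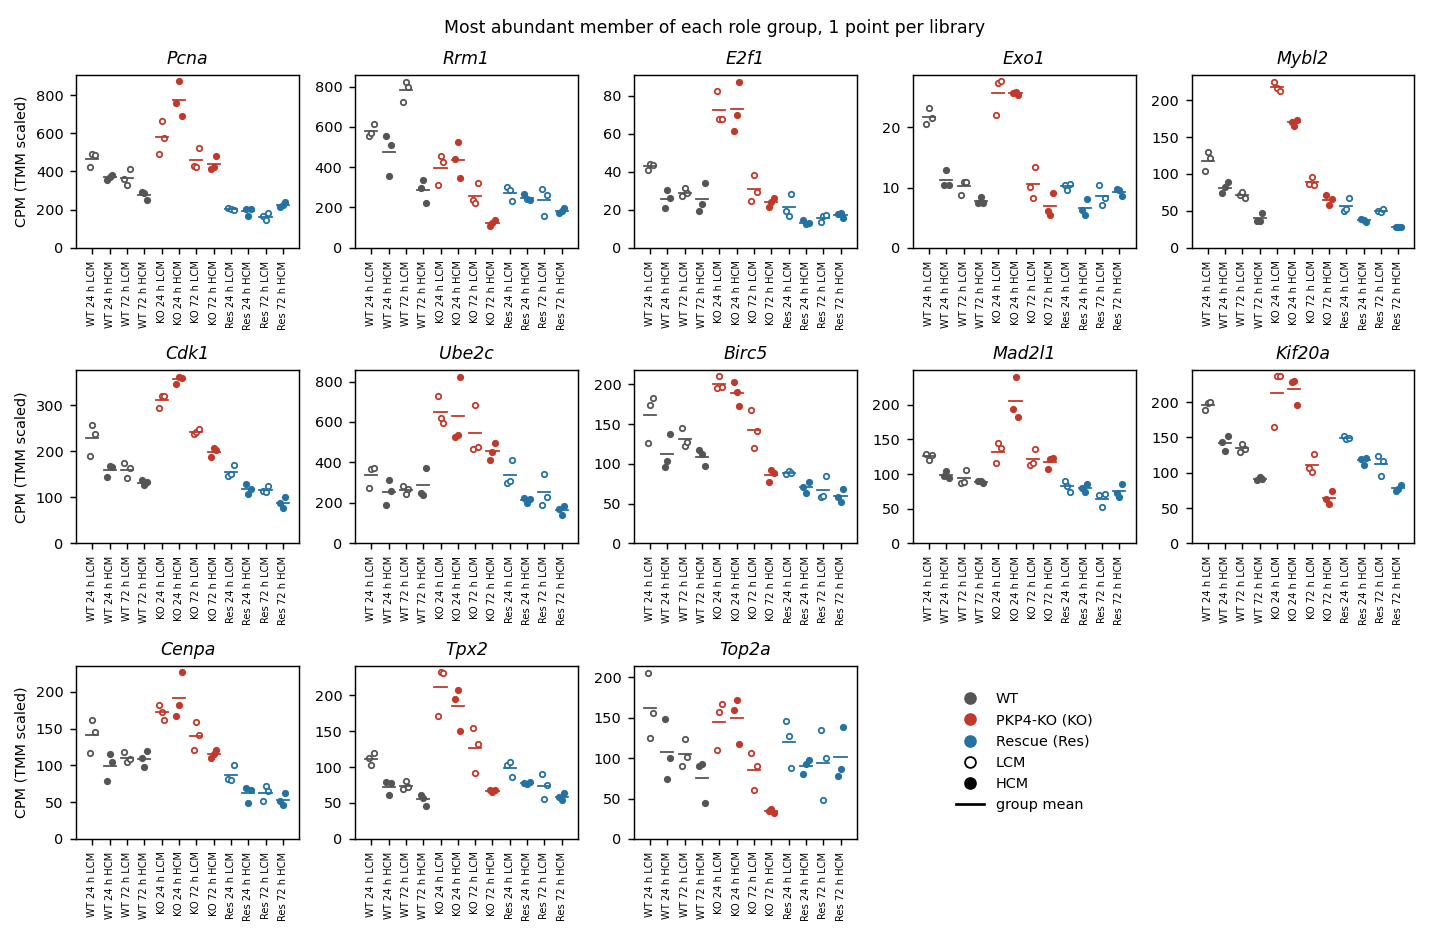
TMM-scaled CPM of the most abundant member of each of the 13 roles (1 panel each) by group, with 1 point per library, open for LCM and filled for HCM, and a line for the group mean. In PKP4-KO cells most of these genes stand highest at 24 h in both media.

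The effect of time was read by comparing 72 h with 24 h in the same medium. In WT cells 23 genes fell and 0 rose in LCM, against 4.66% of all genes called lower and 5.29% higher. In HCM 21 fell and 0 rose, against 8.69% and 9.16%. The HCM comparison starts from the WT 24 h libraries that were the lower arm of the known contrast, so the choice works against falls there. The medians were −0.56 in LCM and −0.43 in HCM. Cdc6 led in LCM (−1.22 (SE 0.20, adjusted p = 0.000174)) and Ccne2 in HCM (−1.29 (SE 0.35, adjusted p = 0.0111)). The LCM count was 12 without the first WT 72 h LCM library, 10 without the filter and 38 in a fit of the compared groups alone, which gave 6 genes in HCM. Rrm1 had the highest estimate in LCM (0.43, adjusted p = 0.209).

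In PKP4-KO cells grown in LCM 35 of the 50 genes were called lower at 72 h and 0 higher, against 13.7% of all genes called lower and 12.4% higher, with a median of −1.24 over the S-phase genes and −0.71 over the mitosis genes. A fit of the compared groups alone called 20. In HCM 48 of the 50 were called lower and 0 higher, against 31.4% and 24.3% of all genes. The 24 h HCM libraries of PKP4-KO cells were known to be high when the genes were chosen, so a fall from them is partly built into the choice. All 50 genes had 72 h libraries under all 24 h libraries, against 33.9% of all genes, and the median of the 50 was −1.67. This comparison also moved with gene length. The median log2 fold change of all genes was 1.91 in the shortest of 30 bins of gene length and −0.84 in the longest. The part of gene length in the falls of single genes was not tested. Cdc6 fell from 21.3, 23.5 and 20.1 CPM to 2.92, 2.76 and 3.86 CPM, a log2 fold change of −2.76 (SE 0.23, adjusted p = 8.79e-11) or 6.76-fold. Mki67, the gene of the proliferation marker Ki-67, stood at 23.2, 28.3 and 21.4 CPM at 24 h and at 6.22, 4.22 and 4.09 CPM at 72 h. Cdk1 fell less, from 345, 362 and 359.9 CPM to 188, 207 and 202 CPM (−0.84 (SE 0.12, adjusted p = 7.97e-07)). Mcm6 stood at 292, 337 and 248.9 CPM at 24 h and at 57.9, 66.6 and 73.7 CPM at 72 h (−2.15 (SE 0.17, adjusted p = 2.26e-11)). The 2 genes not called were Gins2, of the replicative helicase (−0.37, adjusted p = 0.133), and Ube2c, the ubiquitin-conjugating enzyme of the anaphase-promoting complex (−0.46, adjusted p = 0.0761). The differentiation marker sum was 884 to 2561 CPM at 24 h and 23519.5 to 25429.5 CPM at 72 h, with 10 of 10 markers called higher, and its part in the fall was not tested.

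The difference in the time effect between PKP4-KO and WT cells was negative in HCM for all 50 genes. It had a median of −1.16 on the log2 scale, and 35 genes were called, all in that direction, against 15.8% of all genes called in that direction and 10.8% in the other. Here too the 24 h HCM libraries enter on both sides, and the PKP4-KO change moved with gene length, as given above. The difference was −2.25 (SE 0.58, adjusted p = 0.00423) for Mki67, −1.57 (SE 0.28, adjusted p = 8.07e-05) for E2f1, the transcription factor of the G1/S wave, and −0.57 (SE 0.16, adjusted p = 0.00971) for Cdk1. In LCM, which does not use those libraries, the median was −0.23 and 6 genes were called, all more negative in PKP4-KO cells, against 1.82% of all genes in that direction and 3.43% in the other. They were Rrm1 (−1.04 (SE 0.29, adjusted p = 0.0311)), Rrm2, Ccne1, Cdt1, Mcm7 and Mybl2. At an unadjusted p below 0.05 there were 15 genes, and the count was 3 without the second or the third PKP4-KO 24 h LCM library, the second WT 72 h LCM library or the first WT 24 h LCM library.

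In Rescue cells 7 genes fell and 0 rose with time in LCM, against 2.96% of all genes called lower and 6.84% higher, with a median of −0.35, and the count was 2 without the second Rescue 72 h LCM or the third Rescue 24 h LCM library and 3 without the first Rescue 24 h LCM library. No gene was called without the filter or in a fit of the compared groups alone. In HCM 7 fell and 3 rose, against 10.7% and 13.6% of all genes, and without TMM factors 1 fell and 3 rose. The 10 calls became 5 without the filter and 20 in a fit of the compared groups alone, 6 without the first or the second Rescue 72 h HCM library and 4 without the first Rescue 24 h HCM library. The genes that rose were Cdt1 (0.70 (SE 0.14, adjusted p = 0.000338)), Exo1 (0.50, adjusted p = 0.0443) and Foxm1, the factor of the G2/M wave (0.43, adjusted p = 0.038). Cdt1 stood at 26.5, 25.6 and 22.2 CPM at 24 h and at 40.5, 40.3 and 39.7 CPM at 72 h. Tyms, thymidylate synthase, fell the most (−0.63 (SE 0.14, adjusted p = 0.00125)).

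Loss of PKP4 was read by comparing PKP4-KO with WT cells in the same medium at the same time. At 24 h in HCM the comparison helped to choose the genes, and its values are a description. All 3 PKP4-KO libraries lay above all 3 WT libraries for 36 of the 50 genes and under them for 0, where 22.6% and 24.1% of all genes did so. The median log2 difference was 1.03. Kif2c had the highest value (2.18), with 22.05, 17.3 and 25.3 CPM in WT and 98.1, 111 and 84.5 CPM in PKP4-KO libraries. Cdc20, which activates the anaphase-promoting complex, stood at 65.1, 60.9 and 78.3 CPM in WT and 244, 229.6 and 215 CPM in PKP4-KO. For Mcm5, a helicase subunit, the WT libraries held 108, 103 and 123 CPM and the PKP4-KO libraries 281, 278 and 237 CPM. The groups overlapped for the other 14 genes, which included Mki67 (−0.16) and Anln, a scaffold of the cleavage furrow (−0.16), which had the lowest value. Values in this contrast also moved with gene length, as given below, and the part of length in the values of single genes was not tested.

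At 24 h in LCM 20 genes were called higher in PKP4-KO than in WT libraries and 2 lower. The test called 19.7% of all genes higher and 20.6% lower in this comparison, and the median of the 50 genes was 0.30. Kif2c rose from 39.5, 44.1 and 40.2 CPM to 93.6, 116 and 106 CPM (1.35 (SE 0.14, adjusted p = 1.09e-08)), with no overlap. Cdc20 rose from 94.5, 114 and 119.6 CPM to 197, 274 and 259.9 CPM (1.16 (SE 0.12, adjusted p = 1.04e-08)). Of the licensing and fork genes 7 of 12 rose, among them Cdc45 (0.90, adjusted p = 2.76e-05) and Cdt1 (0.89, adjusted p = 5.75e-06), both part of helicase loading and firing. The 2 genes called lower were Rrm1 (−0.55, adjusted p = 0.0353) and Ccne2 (−1.13, adjusted p = 0.0115). Ccne2 stood at 33.3, 18.7 and 23.5 CPM in WT and 7.05, 14.4 and 13.1 CPM in PKP4-KO libraries.

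At 72 h the 50 genes did not share a direction. In LCM 16 were called higher in PKP4-KO and 10 lower, against 21.3% and 23.8% of all genes, at a median of −0.01, and without TMM factors 4 were higher and 14 lower. Without the third PKP4-KO 72 h LCM library 11 were higher and 13 lower. Kif2c (1.28 (SE 0.14, adjusted p = 2.74e-08)) and Ube2c (1.04, adjusted p = 0.000427) were the highest of the 16, 12 of which act in mitosis. Brca1 (−1.60 (SE 0.40, adjusted p = 0.00184)) and Rrm1 (−1.59 (SE 0.21, adjusted p = 5.59e-07)) were the lowest. Rrm1 stood at 722, 824 and 797 CPM in WT and at 236, 221 and 321 CPM in PKP4-KO libraries. In HCM 9 were called higher and 16 lower, against 21.9% and 29.9% of all genes, at a median of −0.16. That split was 0 higher and 38 lower without TMM factors, 15 and 14 with DESeq2, and 16 and 11 with a correction for gene length. The lowest was Mki67, from 35.7, 32.00 and 9.13 CPM in WT to 6.22, 4.22 and 4.09 CPM in PKP4-KO (−2.41 (SE 0.43, adjusted p = 4.09e-05)), and the highest Gins1, of the replicative helicase (0.85 (SE 0.17, adjusted p = 0.000196)). Cdk1 was called higher with TMM factors (0.59 (SE 0.12, adjusted p = 0.000116)) and had a log2 fold change of −0.18 without them.

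Gene length moved with these differences. Across the 15114 genes the Spearman correlation of log2 fold change with the exonic length of the gene was −0.25 for PKP4-KO against WT at 24 h in LCM, −0.36 at 72 h in LCM and −0.37 at 72 h in HCM. Across the 50 genes it was −0.56, −0.50 and −0.42, as a description over genes that share their libraries. The members up to the median member length of 4361.5 bases had a median of 0.60 on the log2 scale at 24 h in LCM, and the longer members 0.05. At 72 h in LCM the values were 0.27 and −0.39, and at 72 h in HCM −0.08 and −0.51. Long members such as Mki67, Cenpe, Kif11, Anln and Brca1 were among the lowest in PKP4-KO cells at 72 h, and short members such as Gins1, Ube2c and Pcna among the higher ones. For the calcium effect in WT cells at 24 h the correlation among the 50 genes was 0.08. PKP4-KO against WT at 24 h in HCM also moved with length. There the median log2 fold change of all genes was 0.18 in the shortest of 30 bins and −0.40 in the longest. The part of length in these differences was not tested beyond the correction for length given above.

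**Figure D5:**
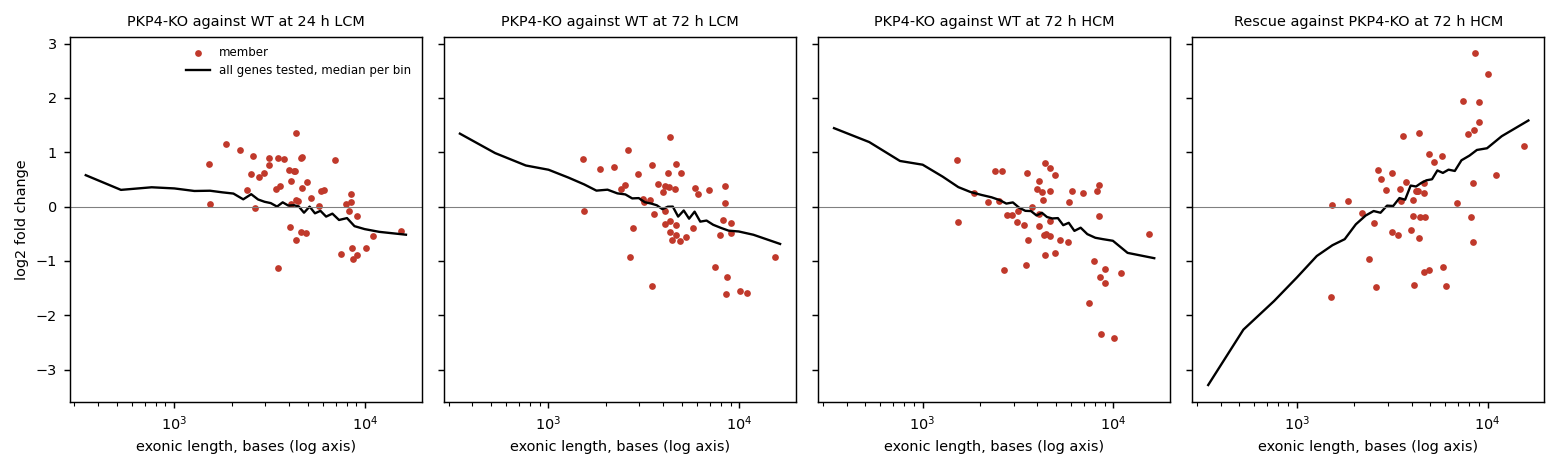
Log2 fold change against exonic gene length (log axis, bases) for the 4 comparisons named above the panels, with 1 red point per member and a black line for the median of all tested genes in bins of length. Longer members have lower values in PKP4-KO against WT cells and higher values in Rescue against PKP4-KO cells at 72 h in HCM.

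Rescue cells were compared with PKP4-KO and with WT cells, and these comparisons share libraries with those above. Against PKP4-KO at 24 h in HCM, 41 genes were called lower in Rescue and 0 higher, against 19% of all genes called lower and 21.7% higher, at a median of −1.36. All 12 licensing and fork genes were among them. This comparison is made with the PKP4-KO 24 h HCM libraries, whose high values were known at the choice of the genes, so the choice favours this direction. E2f1 stood at 61.3, 69.99 and 87.5 CPM in PKP4-KO and 14.4, 12.4 and 12.9 CPM in Rescue libraries (−2.46 (SE 0.20, adjusted p = 5.67e-11)). Cdk1 stood at 129, 106 and 119 CPM in Rescue, against 144, 168 and 166 in WT and 345, 362 and 359.9 CPM in PKP4-KO libraries. The Rescue values of Cdk1 were under those of both other groups. In LCM at 24 h, 37 genes were called lower and 0 higher, against 15.5% and 18.2%, at a median of −0.88, led by Mybl2 (−1.95 (SE 0.12, adjusted p = 4.38e-13)). Cenpe had the highest estimate in both media (0.63, adjusted p = 0.348 in HCM, and an adjusted p of 0.147 in LCM). Against PKP4-KO at 72 h in LCM, 24 were called lower and 4 higher, against 18.3% and 23.3%, and without TMM factors 12 and 6. The 4 that were higher were Ccne1, Rrm2, Mcm4 and Kif23. At 72 h in HCM 19 were called higher and 14 lower, against 37.2% and 29.5%, at a median of 0.26. Without TMM factors 42 were higher and 1 lower, and with a correction for length 14 were higher and 19 lower. Cenpe had the highest value (2.82 (SE 0.62, adjusted p = 0.000281)) and Gins1 the lowest (−1.67 (SE 0.18, adjusted p = 7.19e-09)).

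Rescue cells were compared with WT cells in the same way. At 24 h in HCM 21 genes were called lower in Rescue than in WT and 1 higher, against 11.4% of all genes called lower and 11.8% higher, and in LCM 30 and 1, against 11.4% and 13.5%. The medians were −0.43 and −0.59, and without TMM factors 9 were lower and 1 higher in HCM. The WT 24 h HCM libraries are the lower arm of the contrast known when the genes were chosen. The choice thus works against lower values in Rescue cells in that comparison. Ccne2 was lowest in both, with 3.64, 3.89 and 2.23 CPM in Rescue 24 h LCM libraries (−2.94 (SE 0.38, adjusted p = 9.33e-07) in LCM and −2.28 (SE 0.37, adjusted p = 2.81e-05) in HCM). The gene that was higher in both media was Cdc20, with 105, 96.7 and 92.8 CPM in Rescue HCM libraries (0.53 (SE 0.12, adjusted p = 0.00171)). At 72 h in LCM 19 were called lower and 0 higher, against 14.6% and 17.9%, at a median of −0.26. At 72 h in HCM 12 were called lower and 7 higher, against 16.7% and 19.5%, and without TMM factors 5 lower and 12 higher. Tyms was lowest (−1.17 (SE 0.14, adjusted p = 2.83e-07)) and Cdc45 highest (0.72 (SE 0.16, adjusted p = 0.000686)).

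Other genes of the same pathways were counted from lists chosen beside the 50, also with earlier results of these data known. Every comparison in this paragraph uses 24 h HCM libraries of the contrast known at the choice, so these counts are not independent of it. Of 33 further replication genes, such as the polymerases and the clamp loader, 15 fell and 0 rose with calcium in WT cells at 24 h, and 0 were called in PKP4-KO cells, beside the shares of all genes given above for these comparisons (7.69% higher and 6.48% lower in WT, 1.44% and 1.4% in PKP4-KO cells). Of 37 further mitosis genes the counts were 14 and 0 in WT and 0 in PKP4-KO cells. From 24 h to 72 h in PKP4-KO HCM 27 of the 33 fell and 1 rose, and 31 of the 37 fell and 0 rose, where 31.4% of all genes fell and 24.3% rose. The difference of the calcium effects at 24 h was called for 1 of the 33 and for 4 of the 37, all more positive in PKP4-KO cells, as were 1.23% of all genes. Among 10 inhibitors of cyclin-dependent kinases and pocket proteins, which hold E2F back, 3 rose and 4 fell from 24 h to 72 h in PKP4-KO HCM, near the shares of all genes. Cdkn1a, the inhibitor p21, had the highest value (1.54) and Rbl1, a pocket protein, the lowest (−2.66).

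The 50 genes lie on 16 chromosomes, and after subtraction of the median log2 fold change of the neighbours within 5 Mb the calcium effect in WT cells at 24 h had a median of −0.56. The change from 24 h to 72 h in PKP4-KO HCM then had a median of −1.60, with 50 of 50 values under 0. The choice of the genes favours the direction of both changes, and the second moved with gene length, as given above.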

How the data were processed

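The table analysed holds read counts per gene in 36 libraries, deposited by the authors without normalization. Per the labels, polyA RNA was sequenced from strand-specific libraries. The authors aligned the reads to mm39 joined to the GFP-PKP4 sequence with HISAT2 2.1.0, sorted and filtered them with SAMtools 1.10 and counted them with featureCounts 2.0.0, per the submitters' processing notes, using Ensembl annotation of GRCm39. The strand setting of the counting is not given in the sources used here, so reads of genes that overlap on opposite strands may not be told apart.

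From the counts, edgeR 4.0.16 in R 4.3.3 was run with filterByExpr over the 12 groups, TMM factors and 1 model of group means (24 residual degrees of freedom). Contrasts were tested with the quasi-likelihood test, and p-values were adjusted by Benjamini-Hochberg over 15114 genes with a threshold of 0.05. Replicates were the 3 libraries of each group, and p-values measure the spread between these libraries. No 2 libraries of a group agreed within sampling noise, since chi-square per gene was at least 7.03 in 36 pairs. On simulated data for WT HCM against LCM at 24 h (12830 genes), 85% of the genes changed 2-fold and 100% of those changed 4-fold were recovered. There were 5 false calls. The simulation gave every gene the same dispersion, changed only well-counted genes and fitted 3 libraries against 3. It therefore checks the code and does not measure the power of the reported tests.

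The members and all gene lists were chosen with earlier results of these data known. All 50 members may be named. Values by library are given for members with the highest mean level in their role or the highest or lowest fold change, and for genes called against the list median. Kif2c, Cdc20, Cdt1, Cdc6, Mki67, Mcm5, Mcm6 and Ccne2 values in further groups were chosen after they were seen. Gene lengths are the exonic lengths in the deposited table, neighbours come from GENCODE M39 (98.9% of genes matched) and promoters from RefSeq. Alternatives were no TMM factors, no filter, at least 10 counts in every library, a replicate block, DESeq2 1.42.0, a fit of the compared groups only and each library left out. A length offset and the omission of 5 libraries high in differentiation markers were added after seeing the data.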

Additional observations from a re-analysis of the deposited data

Results flagged for a closer look

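The 4 tests of a difference between PKP4-KO and WT effects called members of the list. Both tests that use the 24 h HCM libraries rest on a contrast known when the genes were chosen, so they are not independent of the choice. The calcium effect at 24 h differed for 14 genes (3 to 23 under other settings), and among the most abundant member of each role it did so for Pcna (0.76 on the log2 scale), Exo1 (0.95), Cdk1 (0.71) and Mad2l1 (0.99), all more positive in PKP4-KO cells. The calcium effect at 72 h differed for 1 gene, Aurkb. The change from 24 h to 72 h in LCM differed for 6 genes, among them Rrm1 (−1.04) and Mybl2 (−0.56). The same change in HCM differed for 35 genes. Of the most abundant members these were Rrm1 (−1.10), E2f1 (−1.57), Exo1 (−1.35) and Cdk1 (−0.57), and further Birc5 (−1.10), Mad2l1 (−0.66) and Kif20a (−1.14). Cenpa (−0.86), Tpx2 (−1.06) and Top2a (−1.61) completed them, and all were more negative in PKP4-KO cells. In HCM the differentiation marker sum rose over the same time to 23520 to 25430 CPM in PKP4-KO and to 4369 to 11325 CPM in WT libraries, and its part was not tested.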

How the results depend on the processing

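Of 217 counts of called members under other settings, 176 stayed within 1.5 times the reported count with the same leading direction, and of 192 counts with 1 library left out 166 did. Without TMM factors the counts were 0 (PKP4-KO calcium 24 h), 46 (PKP4-KO calcium 72 h), 7 (Rescue calcium 72 h), 4 (Rescue time in HCM, 3 higher), 38 (PKP4-KO against WT at 72 h in HCM, 0 higher), 18 (the same in LCM, 4 higher), 10 (Rescue against WT at 24 h in HCM), 17 (the same at 72 h, 12 higher), 18 (Rescue against PKP4-KO at 72 h in LCM) and 6 (difference of calcium effects at 72 h). Without the filter they were 14 (Rescue calcium 24 h), 10 (WT time in LCM), 0 and 5 (Rescue time in LCM and HCM), and 3 and 0 (differences of calcium effects at 24 h and 72 h). With at least 10 counts in every library they were 2 (PKP4-KO calcium 24 h), 23 and 2 (those differences). DESeq2 gave 3 (PKP4-KO calcium 24 h), 29 with 15 higher (PKP4-KO against WT at 72 h in HCM) and 23 (difference of calcium effects at 24 h). A fit of the compared groups alone gave 0 (PKP4-KO calcium 24 h), 15 and 10 (Rescue calcium 24 h and 72 h), 38 and 6 (WT time in LCM and HCM), 20 (PKP4-KO time in LCM), 0 and 20 (Rescue time in LCM and HCM), 16 (Rescue against PKP4-KO at 72 h in LCM), 4 and 0 (differences of calcium effects at 24 h and 72 h) and 3 (difference of time effects in LCM). The length offset gave 27 with 16 higher (PKP4-KO against WT at 72 h in HCM), 33 with 14 higher (Rescue against PKP4-KO at 72 h in HCM) and 2 (difference of calcium effects at 72 h). Without the 5 libraries high in differentiation markers the counts were 4 (Rescue time in LCM), 4 and 4 (differences of calcium effects at 24 h and 72 h) and 13 (difference of time effects in LCM). The cause of these shifts was not tested. Medians that changed sign were those of Rescue against WT at 72 h in HCM (0.06, with −0.11 under the length offset, −0.12 without the 5 libraries, and −0.12 to 0.15 with 1 library left out, the lowest without the third Rescue or the third WT library) and of Rescue against PKP4-KO at 72 h in HCM (0.26, with −0.044 under the length offset).

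Among the most abundant members, scaling without TMM factors reversed 14 called values. In PKP4-KO against WT at 72 h in HCM these were Pcna −0.12, Mybl2 −0.022, Cdk1 −0.18, Ube2c −0.065 and Mad2l1 −0.37, and in LCM Pcna −0.050, Mybl2 −0.075 and Mad2l1 −0.00282. In Rescue against PKP4-KO at 72 h in HCM they were Pcna 0.21, E2f1 0.70, Cdk1 0.00137, Birc5 0.65, Mad2l1 0.53 and Cenpa 0.060, and the length offset reversed Rrm1 (−0.53) and Exo1 (−0.48).

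With 1 library left out the counts ran from 22 to 29, 20 to 24, 0 to 1, 27 to 31, 14 to 18 and 12 to 15 for the calcium effects (WT, PKP4-KO and Rescue, each at 24 h and 72 h), and from 12 to 21, 14 to 20, 27 to 39, 45 to 47, 2 to 6 and 4 to 8 for the time effects (the same cells in LCM and HCM). They ran from 18 to 22, 18 to 27 and 19 to 24 for PKP4-KO against WT (24 h LCM, 72 h HCM and 72 h LCM). For Rescue they ran from 18 to 21, 24 to 29, 13 to 18 and 17 to 20 against WT and from 41 to 42, 35 to 39, 29 to 32 and 23 to 27 against PKP4-KO. For the differences they ran from 5 to 13, 0 to 2, 3 to 7 and 34 to 40. The 14 genes of the difference at 24 h became 9 or 5 without the first or second PKP4-KO HCM library, 6 without the first PKP4-KO LCM library, 8 or 7 without the first or second WT HCM library and 8 or 7 without the second or the third WT LCM library.

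A replicate block gave 16 instead of 14 genes for the difference of calcium effects at 24 h and changed no other count by over 1.5 times. No pairing of the libraries by number was seen. Deviations of same-numbered libraries had a median r of 0.016 (65 of 198 pairs over 0.1), and 9 of 36 libraries correlated best with their own number. Such a check cannot exclude shared batches, since it sees only those that follow the numbers.

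With 3 libraries a group, the standard errors of members had a median near 0.16 on the log2 scale for the calcium effect in WT cells at 24 h (0.11 to 0.52) and of 0.23 for the difference of calcium effects (up to 0.74), and falls of 0.34 and 0.35 in Pcna and Mad2l1 were not called.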
